A study of Mus musculus with 4 samples.

Results

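Collagens are the most abundant structural proteins of the lung's extracellular matrix, and their genes were followed here in mouse alveolar type II cells, which line the alveolus and secrete surfactant, after sorting. Members were all genes on the array whose name in the array annotation is a collagen chain name, Col followed by a type and a chain number. The rule matched 43 genes (86 probes) of the 27606 genes (41174 probes) measured. At least 1 of the 4 arrays detected 36 of them well above background and all 4 arrays detected 32, against 18844 and 15768 of all genes. Each gene was represented by its brightest probe. The naming rule itself uses no measured difference, but the family was chosen with earlier results of these data known.

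There were 4 groups, all labelled as lung cells of female mice: wild-type (WT) mice without tumor cells, WT mice inoculated with Lewis lung carcinoma (LLC) cells, and Tlr3-deficient (Tlr3-/-) mice without and with LLC. LLC is a mouse lung cancer line, here placed under the skin, so the lung was not the site of inoculation. Lungs were taken 2 weeks after inoculation and the cells were sorted on a flow cytometer. TLR3 senses double-stranded RNA. Each group is 1 one-colour (Cy3) array. Neither the number of mice behind an array nor their age or strain is in the labels. With 1 array a group the spread between replicates is unknown and no test was possible. A gene was compared between 2 arrays where at least 1 of them detected it, and is called higher or lower where it differed by at least 2-fold.

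Every collagen molecule is a triple helix of chains in which glycine recurs at regular steps along the chain. Fibrillar collagens (types I, II, III, V, XI, XXIV and XXVII) assemble into the cables that give tissue its tensile strength, and in lung they come mainly from fibroblasts. Type IV collagen forms the sheet-like network of basement membranes on which the alveolar epithelium sits, and the types XV and XVIII are further basement membrane collagens. The remaining types attach to fibrils, form beaded filaments or short-chain networks, anchor epithelia or span the cell membrane. In bulk RNA, fewer cells of a type and less RNA per cell cannot be told apart.

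The sequence features of the family are shown in both array probes and promoters. Probes of Col11a2, Col5a1 and Col5a3 lie in the coding stretch of the helix, and the capitals mark the glycine codons, each followed by a pair of other codons. They are shown because this repeat defines the family. The array annotation places them on mm9 at chr17:34189287-34189453 (plus strand, 6 glycine codons), chr2:27842243-27844666 (plus strand, 6) and chr9:20590066-20590795 (minus strand, 7). All 3 were dimmer than another probe of the same gene, so they carry none of the values below except where named.
Col11a2 probe: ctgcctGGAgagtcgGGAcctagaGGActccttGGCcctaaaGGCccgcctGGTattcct
Col5a1 probe: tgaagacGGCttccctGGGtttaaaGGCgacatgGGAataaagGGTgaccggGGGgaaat
Col5a3 probe: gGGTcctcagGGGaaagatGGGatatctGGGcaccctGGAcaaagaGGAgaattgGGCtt

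The 150 bases before the start site, from RefSeq on GRCm38.p6, are shown for 3 genes that were highest on the same array, as described next: Col1a2 (chr6:4505468-4505617, plus strand), Col3a1 (chr1:45311388-45311537, plus strand) and Col4a4 (chr1:82586850-82586999, minus strand). Capitals mark a match, on either strand, to the TATA box (searched as TATAAA), to the CCAAT box or to the motif known for Sp1 (searched as GGGCGG). Col1a2 holds a CCAAT match, Col3a1 holds a TATAAA match and Col4a4 holds none of the 3 motifs in this window. A match was taken anywhere in the window, at no set distance from the start site.
Col1a2 promoter: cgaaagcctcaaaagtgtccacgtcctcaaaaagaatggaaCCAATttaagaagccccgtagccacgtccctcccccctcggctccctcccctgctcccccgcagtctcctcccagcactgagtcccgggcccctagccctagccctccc
Col3a1 promoter: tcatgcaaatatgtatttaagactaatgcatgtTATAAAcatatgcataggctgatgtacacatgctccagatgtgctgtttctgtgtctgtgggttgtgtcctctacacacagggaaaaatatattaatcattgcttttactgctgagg
Col4a4 promoter: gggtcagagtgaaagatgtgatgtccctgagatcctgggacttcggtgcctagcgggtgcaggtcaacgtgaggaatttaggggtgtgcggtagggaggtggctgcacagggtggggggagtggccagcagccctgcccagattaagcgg

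Of 38 such windows of 35 collagen genes in the table, 4 held a match to TATAAA, 8 to CCAAT and 19 to the Sp1 motif. The shares of all 32851 windows of this length in the table were 7.57%, 24.5% and 28.6%. No motif shares its letters with another. A match describes the sequence and is no sign of a factor bound there. Neighbouring type IV genes share a start region: the start sites of Col4a1 and Col4a2 lie 21 bases apart on opposite strands of chromosome 8, and those of Col4a5 and Col4a6 lie 1343 bases apart on opposite strands of the X chromosome.

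The fibrillar and type IV collagens had a common order of arrays. All 8 fibrillar genes and all 6 type IV genes that were well above background on every array were highest on the tumor-free Tlr3-deficient array, lower with tumor in both genotypes, and lower on both tumor arrays than on both arrays without tumor. For the type IV genes this held under every scaling and with the mean of all probes. Of the fibrillar genes 6 of 8 were highest there with normexp, a model-based background correction, and 7 of 8 with quantile normalization, median centring, the series' value table or the mean of all probes. Both tumor arrays were below both others for 7 of 8 with normexp and for 4 of 8 with the mean of all probes. Among all 15768 genes measured on every array, 22.4% were highest on that array and 33.1% were below 0 in both tumor comparisons (53.7% in WT and 51.7% in Tlr3-deficient cells). Both tumor arrays lay below both others for 22.2% of them. Of the 17 other collagens, 7 were highest on the Tlr3-deficient array without tumor, 7 were lower with tumor in both genotypes and 5 had both tumor arrays below both others. Values below are log2 processed intensity minus log2 of the array's 75th percentile, so that 0 is the 75th percentile of the array, and the 4 values of a gene follow this order of arrays: tumor-free WT, WT with LLC, tumor-free Tlr3-deficient, Tlr3-deficient with LLC.

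**Figure D1:**
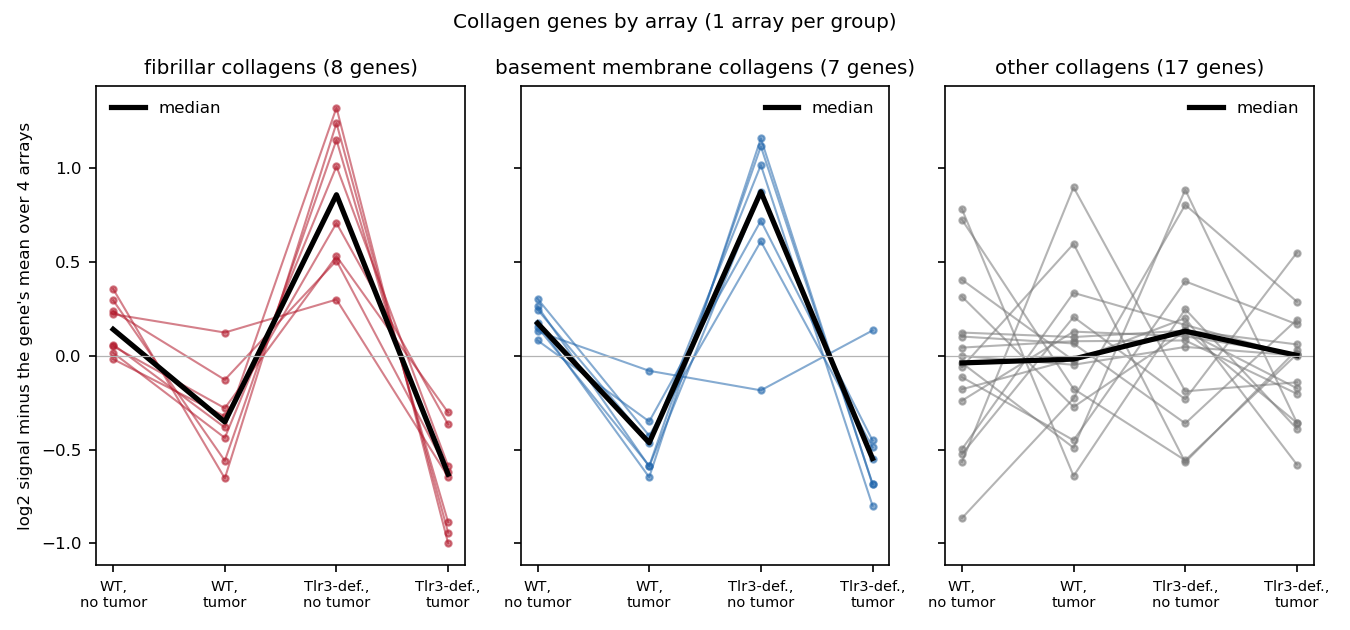
Log2 signal of each collagen gene minus that gene's mean over the 4 arrays (y axis) on each array (x axis, 1 array per group), for 8 fibrillar, 7 basement membrane and 17 other collagens well above background on all 4 arrays. Thin lines are genes and the thick black line is their median. Fibrillar and basement membrane genes peak on the Tlr3-deficient array without tumor, except Col18a1, and the other collagens have no common order.

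The array labelled Tlr3-deficient without tumor also stands apart in sex-linked genes. It alone carried Y-linked transcripts well above background (4 of 4 genes there, 0 of 4 on each other array), and Xist, expressed from the inactive X of female cells, was -4.05 there against 4.05, 4.04 and 3.80 on the others. Its Y-linked signal and low Xist go against its label as female. Every tumor difference in Tlr3-deficient cells and every genotype difference without tumor rests on that array. In these comparisons a tumor or genotype effect cannot be told apart from a difference in sex, also for the X-linked Col4a5 and Col4a6. The 75th percentile of intensity was 555 to 904 over the 4 arrays, 61.0% to 65.4% of spots were well above background, and 33 to 36 collagen genes were so on an array. Of 3 slides, 1 held 2 arrays (WT with tumor beside Tlr3-deficient without) and the others held 1 array each, so a slide effect and a group effect cannot be told apart. Between replicate spots on the arrays, the SD of a log2 difference was 0.32 for WT with against without tumor and 0.11 for the same comparison in Tlr3-deficient cells. It was 0.32 between genotypes without tumor and 0.13 with tumor. The WT array without tumor was the noisier one: the Col1a1 probe, spotted 10 times, had an SD of 0.40 between its spots there and of 0.04 to 0.07 on the other arrays.

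In Tlr3-deficient cells, 13 of 36 compared collagens were at least 2-fold lower with tumor and 0 were higher. Of all 18130 genes compared, 3.89% were lower and 4.5% were higher. The 13 were 6 of 10 compared fibrillar genes (Col1a1, Col1a2, Col3a1, Col5a1, Col5a2 and Col5a3), all 6 type IV genes and Col6a3, a beaded filament chain. The median log2 difference was -1.17 over the fibrillar and -1.30 over the 8 basement membrane genes, against -0.20 over the other collagens and -0.01 over all genes. Col5a1 (-0.99) and Col5a3 (-0.74) were short of 2-fold with normexp, and Col5a1 (-0.98) and Col6a3 (-0.87) with the mean of all probes of a gene. With genes dim on 1 array set at their bound, the fibrillar median was -1.10 and the basement membrane median was the same. In WT cells, 2 of 34 compared collagens were at least 2-fold lower with tumor (Col5a2 and Col6a2), where 1.56% of 17958 genes were lower, and 1 was higher (Col17a1), where 5.65% were. With normexp background correction these 3 WT calls fell short of 2-fold (-0.84 for Col5a2, -0.78 for Col6a2 and 0.25 for Col17a1). The WT medians were -0.44 for fibrillar, -0.72 for basement membrane and -0.02 for other collagens, against 0.0 for all genes.

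Type I collagen, the main fibril former, is built from the chains of Col1a1 and Col1a2. Col1a1 (probe at mm9 chr11:94813075-94813134) read 1.72, 0.86, 2.57 and 0.54. Both tumor arrays lay below both arrays without tumor, and the Tlr3-deficient array without tumor was highest. Col1a1 was 4.11-fold lower with tumor in Tlr3-deficient cells (log2 -2.04, scanner error 0.20) and 1.81-fold lower in WT cells (log2 -0.855). Col1a2 (chr6:4490619-4490678) read 3.52, 3.07, 4.51 and 2.92, in the same order of arrays. It was 3.02-fold lower with tumor in Tlr3-deficient cells (-1.60) and 1.37-fold lower in WT cells (-0.45).

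Type III collagen, which runs beside type I in distensible tissue such as lung, gave the widest range among the fibrillar genes. Col3a1 (chr1:45405589-45405648) read 2.28, 1.84, 3.54 and 1.22. It was 5.0-fold lower with tumor in Tlr3-deficient cells (-2.32) and 1.36-fold lower in WT cells (-0.44), and the difference between these tumor differences was -1.88. A second Col3a1 probe, dimmer and below background on the Tlr3-deficient tumor array, gave -2.22 and -0.49.

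Type V chains nucleate fibrils of type I and set their width. Col5a2 (chr1:45433621-45433680), the neighbour of Col3a1 on chromosome 1, read -0.91, -1.92, -0.02 and -2.21. It was the only collagen at least 2-fold lower in both tumor comparisons (2.01-fold in WT and 4.54-fold in Tlr3-deficient cells), where 0.383% of the 17244 genes compared in both were so. Col5a1 (chr2:27892892-27892951) read -1.58, -1.88, -0.85 and -1.93 and was 2.10-fold lower with tumor in Tlr3-deficient cells. Col5a3 (chr9:20574592-20574651) read -1.39, -1.75, -1.12 and -2.24 and was 2.18-fold lower. Of the cartilage-type fibrillar genes, Col2a1 differed by -0.83 and Col11a2 by -0.95 with tumor in Tlr3-deficient cells, short of 2-fold. Col27a1 was dim on the WT tumor array, Col11a1 was detected on the tumor-free Tlr3-deficient array alone, and Col24a1 on none.

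All 6 type IV chains read highest on the tumor-free Tlr3-deficient array and lowest on a tumor array, that of Tlr3-deficient cells for 5 and that of WT cells for 1 (Col4a4). Of all 15768 genes measured on every array, 22.4% were highest on that tumor-free array and 47.1% were lowest on a tumor array. Col4a1 and Col4a2 encode the chains of the network found in nearly all basement membranes. Col4a1 (chr8:11199009-11199068) read 4.32, 3.89, 4.96 and 3.79. Col4a2 (chr8:11448840-11448899) read 4.01, 3.28, 4.32 and 3.22. Both tumor arrays lay below the arrays without tumor and differed little from each other (-0.10 and -0.06, Tlr3-deficient minus WT). With tumor, Col4a1 was 2.25-fold and Col4a2 2.14-fold lower in Tlr3-deficient cells, and 1.35-fold and 1.66-fold lower in WT cells.

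Col4a3, Col4a4 and Col4a5 encode the chains of a second network, known from the glomerulus and the alveolus, and Col4a6 a chain that joins Col4a5 in other basement membranes. Col4a3 (chr1:82717775-82717834) read 0.51, -0.32, 1.49 and -0.35. Col4a4 (chr1:82447298-82447326) read 2.59, 1.74, 3.20 and 1.78. For both genes the tumor arrays were nearly equal, with genotype differences of -0.04 and 0.04, while the arrays without tumor differed by 0.98 and 0.61. Col4a5 (chrX:138122995-138123054) read -0.85, -1.56, -0.08 and -1.90. Col4a6 (chrX:137599990-137600049) read -0.54, -1.28, 0.43 and -1.37. These values follow the order seen in the other type IV genes, with the tumor-free Tlr3-deficient array above all others. With tumor in Tlr3-deficient cells, the 4 genes were 3.59-fold (Col4a3), 2.68-fold (Col4a4), 3.52-fold (Col4a5) and 3.48-fold (Col4a6) lower, and in WT cells 1.77-fold, 1.81-fold, 1.64-fold and 1.67-fold lower. Over the 6 type IV genes the median difference was -1.61 in Tlr3-deficient and -0.74 in WT cells. With the brightest probes the ranges were -1.84 to -1.10 and -0.85 to -0.43. They overlapped once dimmer probes above background on all arrays were taken in. Such probes gave -1.17 for Col4a4 in WT cells, and -0.99 for Col4a1 and -0.06 for Col4a6 in Tlr3-deficient cells. That of Col4a3 stayed within both ranges. The genes share the same arrays and are not independent replicates.

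The other basement membrane collagens departed from type IV. Col18a1, the source of endostatin, read 1.36, 1.15, 1.04 and 1.36, and was lowest on the Tlr3-deficient array without tumor, where the type IV genes were highest. Its tumor differences were -0.21 in WT and 0.32 in Tlr3-deficient cells. Col15a1 (chr4:47325103-47325162) was dim on the tumor-free WT array and read -4.84, -3.66 and -4.62 on the others. It was at least 3.01-fold higher in tumor-free Tlr3-deficient than in tumor-free WT cells, and its difference with tumor in Tlr3-deficient cells was -0.96, short of 2-fold.

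Among the beaded filament genes, the chains of type VI, which link fibrils and basement membranes, did not share an order of arrays. Col6a1 (chr10:76171899-76171958) read 3.68, 3.09, 3.50 and 3.19, and was within 2-fold in all 4 comparisons. Col6a2 (chr10:76058931-76058990) read 1.52, 0.10, 0.98 and 0.35, and its highest array was WT without tumor. It was 2.68-fold lower with tumor in WT cells (-1.42) and 1.56-fold lower in Tlr3-deficient cells (-0.64). Col6a3 (chr1:92663663-92663722) read 0.68, 0.23, 1.60 and 0.36, highest on the tumor-free Tlr3-deficient array and lowest on the WT tumor array. It was 2.37-fold lower with tumor in Tlr3-deficient cells and 1.37-fold lower in WT cells. Col6a2 passed 2-fold in WT cells alone and Col6a3 in Tlr3-deficient cells alone, and the differences between the tumor differences were 0.79 and -0.79.

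Among the remaining collagens, Col17a1 was called in 2 comparisons. Col17a1, the transmembrane collagen of the hemidesmosome, read -4.46, -3.0, -4.08 and -4.04 (chr19:47720894-47720953). The WT tumor array was the high one: Col17a1 was 2.76-fold higher there than on the WT array without tumor (log2 1.46, scanner error 0.30) and 2.06-fold higher than on the Tlr3-deficient tumor array. Col8a1, a chain of the short-chain networks made by vessels, read -1.72, -1.09, -0.05 and -0.57 (chr16:57627033-57627092), with both Tlr3-deficient arrays above both WT arrays. Col12a1, which coats type I fibrils, read -1.28, -2.18, -2.57 and -2.0 (chr9:79447270-79447329), with the tumor-free WT array above the rest. The other FACIT (fibril-associated) collagens above background on all arrays (Col9a2, Col14a1, Col16a1, Col20a1 and Col22a1) differed by -0.78 to 0.37 in the tumor comparisons. Col7a1, the anchoring fibril collagen of epithelia, read 1.03, 0.99, 0.56 and 1.12 and was lowest on the Tlr3-deficient array without tumor. Col6a6, Col9a1, Col9a3, Col10a1, Col19a1 and Col28a1 were not well above background on any array.

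**Figure D2:**
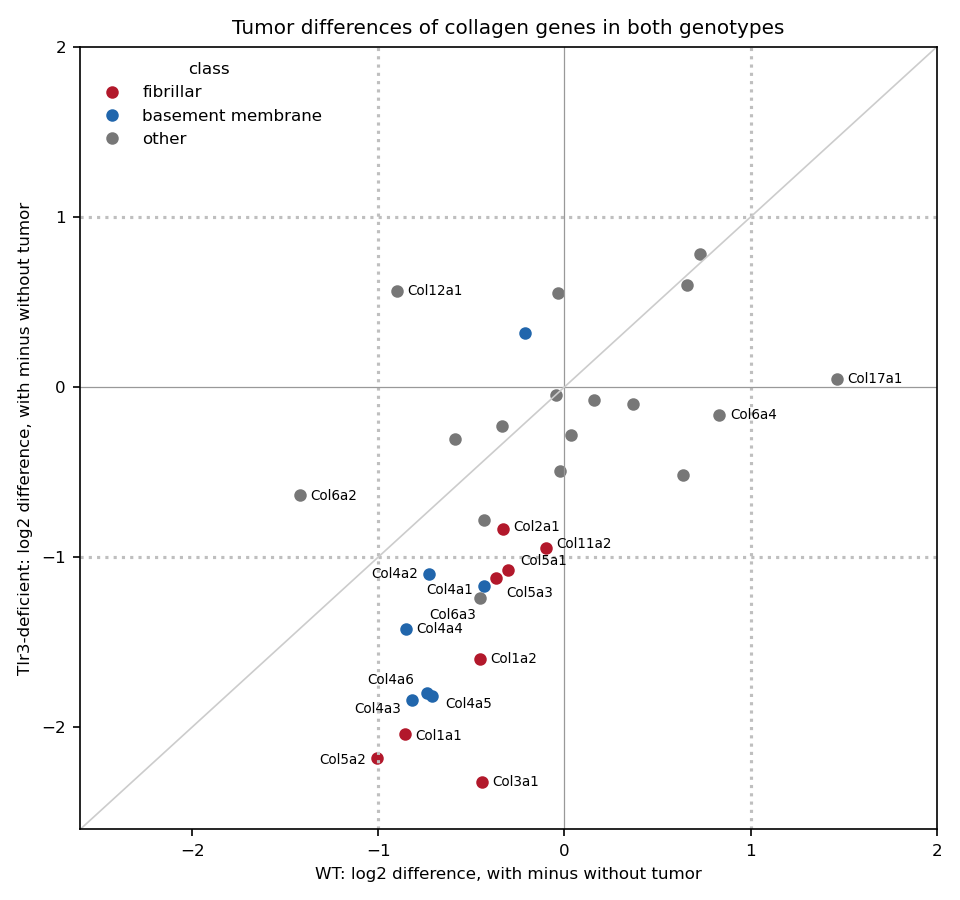
Log2 difference with minus without tumor in Tlr3-deficient cells (y axis) against that in WT cells (x axis) for the 32 collagens well above background on all 4 arrays, 1 array per group. Dotted lines mark 2-fold and the diagonal marks equal differences. Fibrillar and type IV genes lie left of 0 and below the diagonal, and 1 gene, Col5a2, lies beyond 2-fold on both axes.

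Across these 32 genes the 2 tumor differences, which share no array, correlated with Pearson r = 0.59 and Spearman rho = 0.67, against 0.39 and 0.33 across all 15768 genes; genes are not independent replicates and no p is given. The difference was more negative in Tlr3-deficient than in WT cells for all 8 fibrillar and all 6 type IV genes. It was so by at least 2-fold for 4 of the 8 and 3 of the 6, and for 702 of all 15768 genes. The share of all genes that were more negative by any size was not counted. The median of the Tlr3-deficient minus the WT difference was -0.99 (range -1.88 to -0.50) over the fibrillar and -0.88 (range -1.10 to -0.37) over the type IV genes. It was -0.24 over the other collagens and 0.02 over all genes. This difference of differences uses the array with Y-linked transcripts. Its part in the result was not tested and cannot be told apart from that of tumor and genotype.

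Without tumor, 3 of 36 compared collagens were at least 2-fold higher on the Tlr3-deficient array than on the WT array (Col3a1, Col8a1 and Col15a1), where 5.88% of 17608 genes were higher. Of the same genes 1 was lower (Col12a1), where 2.34% of all genes were. Col3a1 was 2.40-fold higher, Col8a1 was 3.18-fold higher and Col12a1 was 2.43-fold lower. Averaged over all probes of the gene, Col3a1 (0.77) and Col12a1 (-0.59) were short of 2-fold, as was Col15a1 with normexp (0.46). As a share, the count of higher collagens is near that of all genes. The median was 0.63 for fibrillar and 0.70 for basement membrane genes against -0.04 for all genes, and all 8 fibrillar and all 6 type IV genes above background on every array were above 0, as were 42.5% of all such genes. Col1a2 (0.99), Col4a3 (0.98) and Col4a6 (0.96) lay just short of 2-fold. This comparison and the tumor comparison in Tlr3-deficient cells share the Tlr3-deficient array without tumor, so a high value there enters both with opposite sign.

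With tumor, the genotypes differed less. Of 34 compared collagens 0 were at least 2-fold higher in Tlr3-deficient cells, where 2.89% of 18251 genes were, and 1 was lower (Col17a1), where 2.65% were, and with normexp Col17a1 differed by -0.55. The median was -0.29 for fibrillar and -0.05 for basement membrane genes against -0.05 for all genes. All 8 fibrillar genes above background on every array were above 0 between genotypes without tumor and below 0 with tumor, an order held by 21.2% of all genes, while 57.0% of all genes were below 0 between genotypes with tumor. The fibrillar differences with tumor ranged from -0.77 to -0.02, so some were near 0. Col3a1 had the largest turn among fibrillar genes, from 1.26 without tumor to -0.62 with tumor. Type IV genes lay between -0.34 and 0.04 with tumor.

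**Figure D3:**
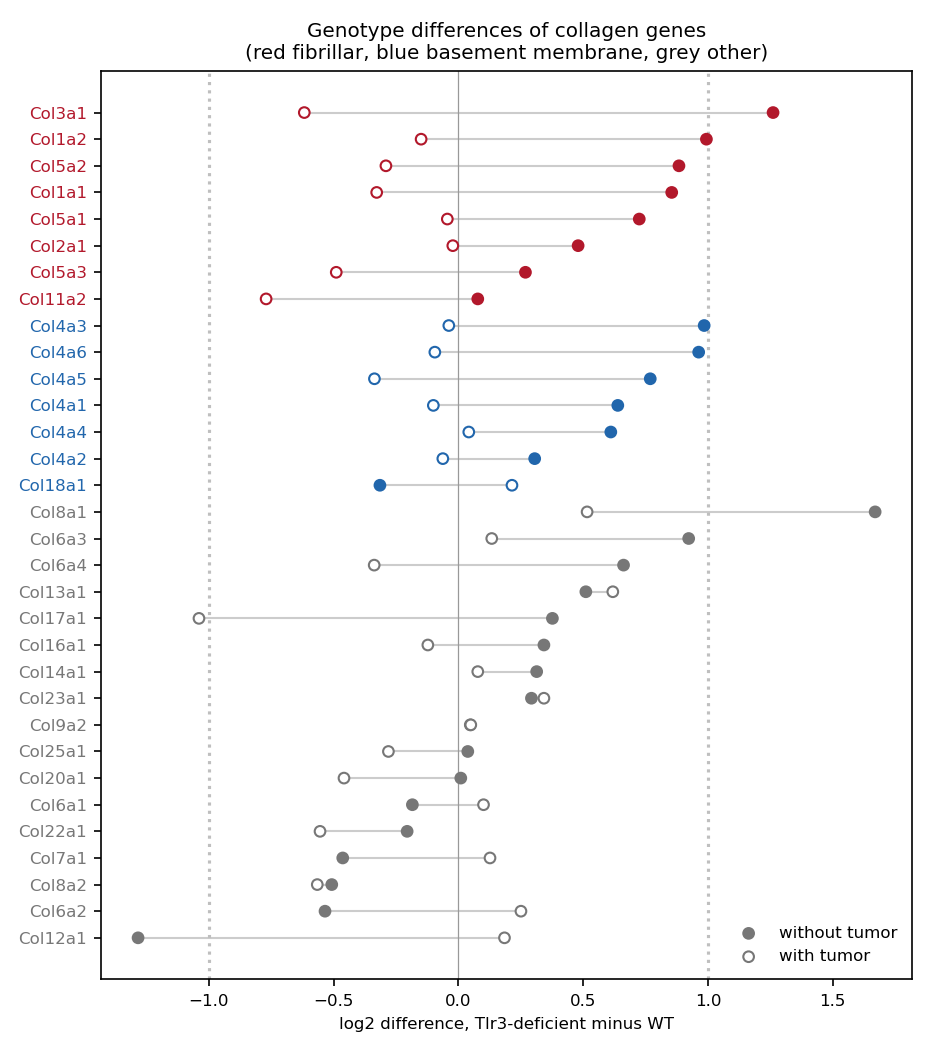
Log2 difference, Tlr3-deficient minus WT (x axis), for each of 32 collagens (y axis), without tumor (filled) and with tumor (open), 1 array per group, with dotted lines at 2-fold. Filled points of fibrillar and type IV genes lie above 0 and their open points lie near or below it; Col8a1 and Col12a1 are the filled points farthest from 0.

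Different probes of a gene were compared where at least 2 were well above background on all arrays, which held for 12 collagens. Their differences had the same sign in 10 of 12 genes in either tumor comparison and between genotypes without tumor, and in 8 of 12 with tumor. All 3 Col1a1 probes gave -1.92 to -2.76 with tumor in Tlr3-deficient cells and -0.85 to -1.02 in WT cells. For Col4a1, Col4a2, Col4a3 and Col4a4 the range between the probes of a gene was at most 0.31 in either tumor comparison. Probes of Col4a6 and Col12a1 disagreed: a dimmer Col4a6 probe differed by -0.06 with tumor in Tlr3-deficient cells where the brightest gave -1.80, and a dimmer Col12a1 probe gave -1.30 where the brightest gave 0.57. The helix probe of Col5a1 printed above gave 0.57 with tumor in WT and -0.89 in Tlr3-deficient cells, against -0.31 and -1.07 for the brightest. The helix probe of Col11a2 was dim on the tumor-free WT array and read -4.52, -4.59 and -4.64 on the others. The Col2a1 probe spotted 10 times gave -2.40 with tumor in Tlr3-deficient cells where the brightest probe of that gene gave -0.83. A dimmer Col6a2 probe gave -0.63 in WT cells, short of the 2-fold difference of the brightest.

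**Figure D4:**
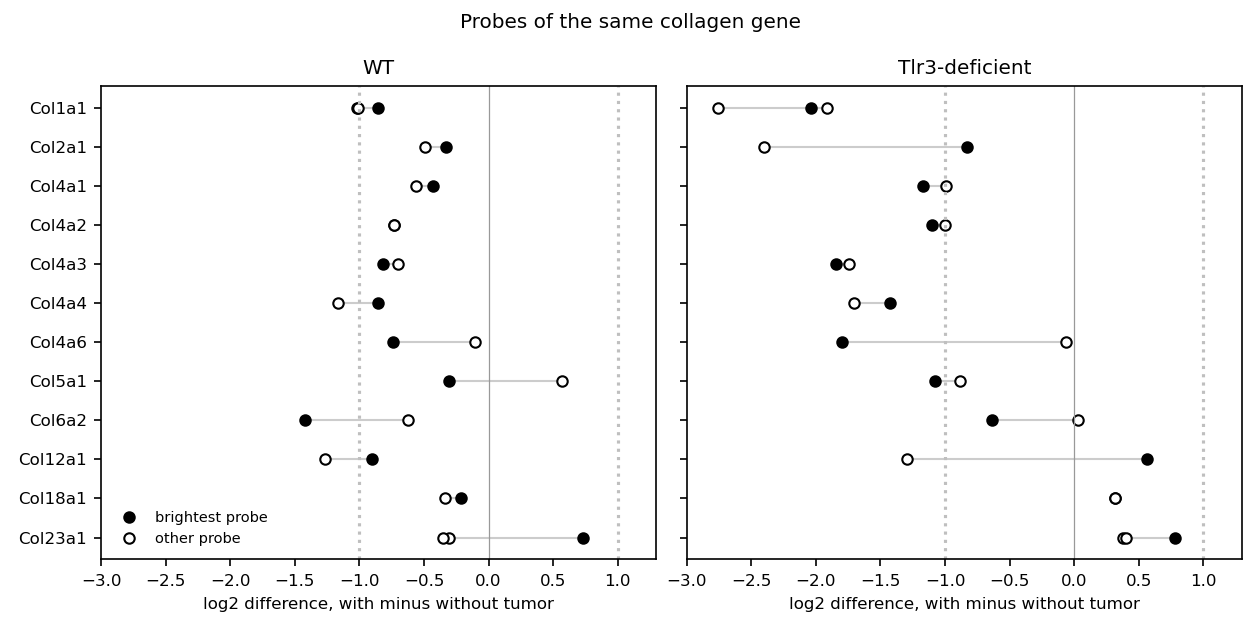
Log2 difference with minus without tumor (x axis) for each probe of the 12 collagens with several probes well above background on all 4 arrays (y axis), in WT (left) and Tlr3-deficient cells (right), 1 array per group. Filled points are the brightest probe of a gene and open points its other probes. The probes of Col4a1, Col4a2, Col4a3 and Col4a4 lie close together, those of Col1a1 span -2.76 to -1.92 in Tlr3-deficient cells, and those of Col2a1, Col4a6 and Col12a1 lie apart in Tlr3-deficient cells.

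Collagen chains are hydroxylated, folded and glycosylated before secretion. Of 18 compared genes for these steps, 1 was at least 2-fold lower with tumor in WT and 5 in Tlr3-deficient cells. Of all genes, 1.56% and 3.89% were lower. In either genotype 0 of the 18 were higher (5.65% and 4.5% of all genes), and the medians were -0.34 and -0.33. Plod2, a lysyl hydroxylase, read -0.66, -1.55, 0.20 and -1.90 and was lower with tumor by log2 -2.10 in Tlr3-deficient and -0.89 in WT cells. Its order of arrays was that of the fibrillar genes. Serpinh1, the collagen chaperone HSP47, read 4.43, 3.57, 4.50 and 3.32, with differences of -1.18 and -0.86, and Sparc, a collagen-binding matricellular protein, read 6.17, 5.36, 6.91 and 5.45, with -1.46 and -0.81. Colgalt2, a collagen galactosyltransferase, read -2.43, -3.55, -1.61 and -2.71 and was lower by more than 2-fold in both (-1.10 and -1.12).

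Outside the cell, propeptides are cut off and chains are cross-linked. Of these genes 3 of 8 were lower with tumor in Tlr3-deficient cells (3.89% of all genes) and 2 of 9 in WT cells (1.56%). In both, 0 were higher (4.5% and 5.65% of all genes). Lox, a lysyl oxidase, read -1.77, -2.94, -1.29 and -3.48 and was lower by log2 -2.20 in Tlr3-deficient and -1.17 in WT cells. Loxl2, a lysyl oxidase of the same family, read -0.65, -0.85, 0.56 and -1.09 and was 2-fold or more lower in Tlr3-deficient cells alone (-1.66 against -0.20). It was also higher by 1.21 in tumor-free Tlr3-deficient than in tumor-free WT cells. Adamts2, which removes the amino-terminal propeptide of fibrillar collagens, read 1.26, 0.34, 1.48 and 0.28 and differed by -1.20 and -0.92.

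Genes for collagen breakdown differed in both directions. Mmp2, a gelatinase of mesenchymal cells, read -0.27, -1.16, 0.09 and -1.48, with tumor differences of -1.57 in Tlr3-deficient and -0.89 in WT cells. The inhibitor Timp3 read 5.04, 4.06, 5.52 and 4.39, with differences of -1.13 and -0.98. Both passed 2-fold in Tlr3-deficient cells alone. Mrc2, a receptor that takes up collagen fragments, read -1.70, -1.69, -1.02 and -2.88 and was lower in Tlr3-deficient cells alone (-1.86 against 0.01). Mmp8 and Mmp9, the collagenase and gelatinase of neutrophils, were not well above background on the WT array without tumor. In WT cells they were higher with tumor by at least 2.66 and 2.47 log2 units. In Tlr3-deficient cells Mmp9 was also higher with tumor, by at least 1.91, and Mmp8 differed by 0.89, short of 2-fold. Of 9 breakdown genes compared in Tlr3-deficient cells, 1 was higher (4.5% of all genes) and 3 were lower (3.89%). Of 10 compared in WT cells, 2 were higher (5.65% of all genes) and 0 lower (1.56%).

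The laminins, nidogens and heparan sulfate proteoglycans that share the basement membrane with type IV collagen had its order of arrays in part. Of 15 compared, 7 were at least 2-fold lower with tumor in Tlr3-deficient cells (median -0.88) and 0 were higher. Of all genes 3.89% were lower and 4.5% higher there. Of 13 compared in WT cells 0 were called (median -0.26), where 1.56% of all genes were lower and 5.65% higher. Without tumor 3 of 13 were higher on the Tlr3-deficient array (median 0.78), where 5.88% of all genes were. Hspg2, which encodes perlecan, read 2.55, 2.30, 3.34 and 1.84, and was lower with tumor by log2 -1.5 in Tlr3-deficient and -0.26 in WT cells. Lama3, the laminin chain of epithelial basement membranes, read 1.46, 1.37, 2.89 and 1.54, and Lamb1 read 0.24, -0.10, 1.16 and -0.23, so that each had a single high array. Their tumor differences in Tlr3-deficient cells were -1.35 and -1.38, and that of Lama2, the laminin chain of muscle and nerve, was -1.09. Lama2 read -2.55, -2.86, -1.05 and -2.14, again with a single high array.

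Receptors and fibril-binding proteins were mostly within 2-fold. Of 8 collagen receptors compared in Tlr3-deficient cells, 2 were higher with tumor (4.5% of all genes) and 1 was lower (3.89%). Of 9 compared in WT cells 0 were called, where 5.65% of all genes were higher and 1.56% lower. Itga11, the fibroblast integrin chain for collagen I, read -1.06, -0.45, -1.65 and -0.40. It was higher with tumor by 1.24 in Tlr3-deficient and by 0.61 in WT cells, and Gp6, the platelet collagen receptor, read -4.18, -4.46, -3.02 and -4.04 and differed by -1.02 and -0.29. Among fibril-binding proteins, Tgfbi read 3.05, 3.03, 1.85 and 3.69, lowest on the array where the fibrillar genes were highest, and was higher with tumor in Tlr3-deficient cells by 1.84. Postn, periostin, read -0.46, 0.18, 0.79 and 0.16 and differed by -0.63 in Tlr3-deficient and by 0.64 in WT cells.

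Marker genes of the sorted cells and of other lung cells were read on the same arrays. All 12 alveolar type II markers were well above background on every array, and 0 of 12 differed by 2-fold in any comparison. Their summed scaled signal was 2025, 2033, 1920 and 1805. All 10 alveolar type I markers were also present on every array, with sums of 426, 298, 543 and 322. They were lower with tumor in 10 of 10 in both genotypes, as were 33.1% of all genes measured on every array. The median was -0.66 in WT and -1.11 in Tlr3-deficient cells, with 3 and 6 of the type I markers at least 2-fold lower. Of all genes compared, 1.56% and 3.89% were at least 2-fold lower. The type I marker sum was highest on the Tlr3-deficient array without tumor, as for the type IV genes. It was slightly lower on the WT than on the Tlr3-deficient tumor array.

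Fibroblast and pericyte markers other than collagens (14 of 15 above background, Gli1 on no array) summed to 56.0, 48.5, 89.4 and 66.9. Their medians were -0.08 with tumor in WT and -0.29 in Tlr3-deficient cells. With tumor 1 of 14 was called, lower in Tlr3-deficient cells, where 3.89% of all genes were. It was Mfap4, a microfibril protein that read 2.64, 2.21, 4.01 and 2.12. Between genotypes without tumor the median of the 14 was 0.69, with 3 below 0. There 1 was at least 2-fold higher (Mfap4, 1.37), where 5.88% of all genes were. Dcn, 1 of the 3 below 0, was within 0.32 in all comparisons. The 6 smooth muscle markers summed to 27.1, 21.1, 33.3 and 24.4. With tumor in Tlr3-deficient cells 2 of 6 were lower (median -0.92), where 3.89% of all genes were. In tumor-free Tlr3-deficient against tumor-free WT cells 4 of 6 were higher (median 1.31), where 5.88% of all genes were. Endothelial markers (10 of 10 above background) summed to 56.9, 46.9, 79.2 and 69.3, with 0 called in the tumor comparisons. Mesothelial markers (4 of 5, Wt1 on no array) summed to 1.42, 3.51, 2.81 and 2.53. A sum follows its brightest genes: the mesothelial median with tumor was 0.04 in WT and -0.35 in Tlr3-deficient cells. Neutrophil markers summed to 3.90, 106.5, 3.49 and 68.4 and macrophage markers to 4.32, 4.18, 3.04 and 11.3. The macrophage medians with tumor were 0.21 in WT and 1.17 in Tlr3-deficient cells. The type I, fibroblast, smooth muscle and endothelial sums were highest on the tumor-free Tlr3-deficient array, as were the fibrillar and type IV collagens. The part of these cells in the collagen differences was not tested.

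In summed signal, the fibrillar genes had 0.70, 2.02 and 0.58 of the WT level without tumor on the array of WT cells with tumor and the Tlr3-deficient arrays without and with tumor. The basement membrane genes had 0.67, 1.42 and 0.65 and the other collagens 0.84, 1.02 and 0.87. Fibroblast and pericyte markers had 0.87, 1.60 and 1.20, type I markers 0.70, 1.27 and 0.76 and type II markers 1.0, 0.95 and 0.89. On the Tlr3-deficient tumor array, fibrillar collagens (0.58) were below the WT level without tumor. So were the smooth muscle (0.90), type I (0.76) and type II (0.89) sums. The fibroblast and pericyte (1.20), endothelial (1.22) and mesothelial (1.79) sums were above it. These arrays differ in both genotype and tumor, and the part of any cell type was not tested.

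**Figure D5:**
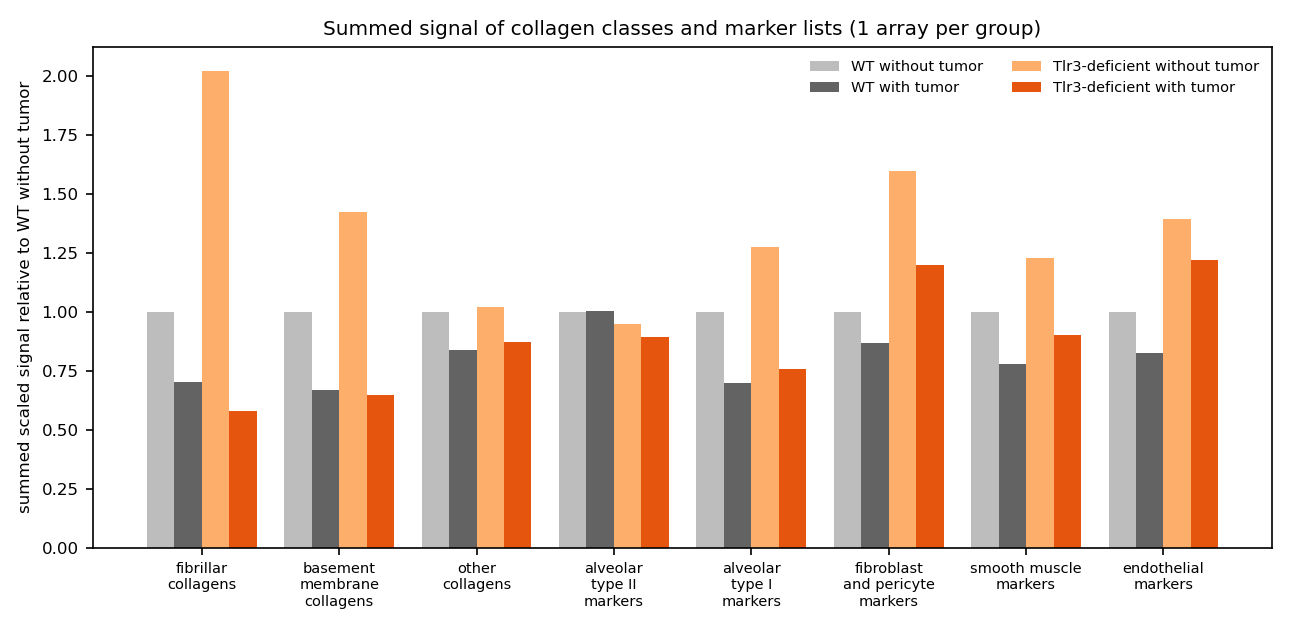
Summed scaled signal (y axis, relative to the WT array without tumor, which is set to 1) of the collagen classes and of marker lists (x axis), over the genes that every array detected, with 1 bar for each array. Fibrillar collagens reach 2.02 on the tumor-free Tlr3-deficient array and 0.58 with tumor; alveolar type II markers stay between 0.89 and 1.0.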

How the data were processed

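RNA of sorted alveolar type II cells was hybridised to 4 one-colour Agilent arrays of design 014868, 1 per group. The authors' scanner files, per the file headers, hold linear intensity from Agilent Feature Extraction 10.7.3.1, background-subtracted and detrended within an array and not scaled between arrays. Probe positions are on mm9. The series' value table, as deposited, holds log2 values of the same arrays with medians of 6.31 on each, in the direction of the scanner files (r = 0.9994 to 1.0 over collagen probes). Its scaling is unstated, and it served as an alternative. Spots flagged as outliers and control spots were left out, spots of a probe were averaged, log2 of the 75th percentile of non-control spots was subtracted, and the probe with the highest mean over arrays stood for its gene. Feature Extraction's flag gave the genes well above background. A comparison took in a gene that at least 1 of its 2 arrays detected. Where only 1 did, the fold is "at least", the bright value over either the dim value itself or the dim array's lowest detected signal, whichever is higher. The scanner error is Feature Extraction's error model and covers spots, not mice.

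Of the 86 collagen probes, 73 carried the same symbol in RefSeq (GRCm38.p6, by accession), 13 had no match and 0 another symbol. The exon in which a probe lies was not looked up, since no mm9 gene models were used here. The probe named Emid2, a former name of Col26a1, fell outside the naming rule. Per-array values are given for Col1a1, Col1a2, Col3a1, Col4a1 to Col4a6, Col6a1 to Col6a3 and each member called in any comparison, and from each companion list for up to 4 genes above background on all arrays with the largest differences of at least 2-fold; Mmp8, Mmp9, Mfap4, Dcn, Col2a1, Col7a1, Col11a2 and Col18a1 were added after their values were seen. Members and lists were chosen with earlier results of these data known. Python 3.11.15, pandas 2.3.3, R 4.3.3 and limma 3.58.1 (normexp) were used, and the calling script was tested on simulated data. The simulation used a fixed noise level, not that of these arrays. It changed only genes well above the lowest detected signal, so it does not cover dim genes.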

Additional observations from a re-analysis of the deposited data

Results flagged for a closer look

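These collagens had differences of opposite sign in the 2 states or genotypes compared that lay at least 2-fold apart. Some were near 0. Whatever the signs, the Tlr3-deficient tumor difference lay at least 2-fold below that in WT for 9 of 32 collagens and above it for 1. Of all 15768 genes above background on every array, 702 lay below and 333 above by as much. Between genotypes with tumor, Col1a2 (-0.15), Col4a3 (-0.04) and Col4a6 (-0.09) were smaller than their scanner errors of 0.20 to 0.21, so their sign there is not settled. The difference of differences has 1 array in each of its 4 terms and was not tested. Each difference of differences uses the array labelled Tlr3-deficient without tumor, which carries Y-linked transcripts. For 8 genes the difference between genotypes was above 0 without tumor and below 0 with tumor: the change was -1.18 for Col1a1, -1.14 for Col1a2, -1.88 for Col3a1, -1.02 for Col4a3, -1.10 for Col4a5, -1.06 for Col4a6, -1.17 for Col5a2 and -1.42 for Col17a1, in log2 units. For 2 genes the tumor difference had opposite signs in the 2 genotypes. Col8a1 differed by 0.64 in WT and -0.52 in Tlr3-deficient cells, -1.15 apart. Col12a1 differed by -0.90 and 0.57, 1.47 apart, and a dimmer Col12a1 probe gave -1.26 and -1.30. For Col4a6, a dimmer probe above background on all 4 arrays was below 0 between genotypes both without (-0.37) and with tumor (-0.33).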

How the results depend on the processing

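None of the counts and medians reversed, and the 13 collagens lower with tumor in Tlr3-deficient cells were all still lower under quantile normalization, median centring, the series' value table and both other filters on dim probes. With normexp (offset 50) 11 of the 13 were (without Col5a1 and Col5a3) and with the mean of all probes also 11 (without Col5a1 and Col6a3). Restricting genes to array columns 52 to 85, away from the noisier columns of the WT array without tumor, left 16 collagens, of which 7 were lower there (2.5% of all genes). Col1a1, Col4a2, Col4a4, Col5a1, Col5a2 and Col6a3 dropped out because their probes lie outside these columns. The tumor comparison in Tlr3-deficient cells does not use that WT array, so this restriction does not check it. The order of arrays held in all 6 type IV genes under each scaling, and less fully in the fibrillar genes, as given above.

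For WT with tumor (1 higher, 2 lower), the counts were 0 and 0 with normexp (2.61% and 0.696% of all genes), 5 and 11 of 34 at 1.5-fold (13.9% and 5.86%) and 0 and 0 in columns 52 to 85 (3.37% and 1.43%), and the lower count was 6 with median centring (2.31%) and 4 with the mean of probes (1.45%). In Tlr3-deficient cells with tumor (0 higher), 1 was higher with no filter (4.27%) and 2 at 1.5-fold (10.2%). The fibrillar median was -0.91 with normexp and the basement membrane median -1.07 with the mean of probes. Between genotypes without tumor (3 higher, 1 lower), of 36 genes 5 were higher with quantile normalization (4.76%), 7 with the value table (7.13%), 1 with the mean of probes (4.83%) and 14 at 1.5-fold (14.0%), and 0 were lower with the mean of probes (2.16%). With tumor (0 higher, 1 lower), 2 were higher with no filter (3.19%) and 1 at 1.5-fold (6.82%). The lower count was 0 with normexp, quantile normalization, median centring, the value table and columns 52 to 85 (1.0% to 3.48%), 2 with the mean of probes (2.47%) or no filter (3.89%) and 3 at 1.5-fold (7.3%), and the fibrillar median was -0.46 with the mean of probes. The cause of these shifts was not tested, apart from the smaller set of genes in the columns. Median centring moved the median of all genes to -0.15 for WT with tumor and to -0.14 between genotypes without tumor.

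With 1 array per group no array can be left out and slide cannot be a block. No paired analysis was possible because each group has 1 array. Signal over background limits the 11 collagens not above background on every array.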
